A study of Homo sapiens with 10 samples.

Results

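The genes examined are the 9 members of the MHC class I antigen presentation pathway listed by symbol for the count tables of T47D breast cancer cells: *HLA-B*, *HLA-C*, *HLA-E*, *HLA-F*, *B2M*, *TAP1*, *TAP2*, *TAPBP* and *PSMB9*, out of 19695 gene symbols in both tables together. Of the 9, 6 had a row in both tables and 7 in at least 1. RNA-seq was carried out in 6 libraries of T47D cells, an established luminal breast cancer line: 2 with control siRNA, 2 with *TRPS1* siRNA and 2 with *CHD4* siRNA, each 72 h after transfection, and TRPS1 binding in T47D cells was mapped by ChIP-seq. For the silencing of *CHD4* the labels name an siRNA, whereas the RNA-seq methods of the study name an shRNA. The comparisons ask which genes depend on TRPS1, an atypical GATA factor, and on CHD4, the chromatin remodeling ATPase of the NuRD complex. Nothing says whether the 2 libraries of a group came from separate cultures, so p values measure the spread between these libraries, which may be technical.

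MHC class I molecules display peptides from inside the cell to CD8 T cells. Proteasomes cut proteins into peptides, with immunoproteasome subunits such as PSMB9 replacing constitutive ones under interferon. The TAP1-TAP2 transporter carries the peptides into the endoplasmic reticulum, where tapasin, the product of *TAPBP*, helps to load them onto a heavy chain paired with beta-2 microglobulin, the product of *B2M*. The heavy chains of *HLA-B* and *HLA-C* are classical and present peptides to T cells, while those of *HLA-E* and *HLA-F* are nonclassical and are also read by receptors of natural killer cells. Interferon raises most of these genes through factors that include STAT2, IRF9 and IRF1, and NLRC5 is the transactivator of class I genes.

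The total counts per library ranged from 10333138 to 14668358, and levels are given as counts and as CPM, the counts scaled to library size with TMM factors over the 6 libraries. Control siRNA replicate 1 stood apart from the rest, with a Pearson r of log2 CPM across genes of 0.847 to 0.870 with the other libraries, against 0.939 to 0.975 among the other 5. The members' comparisons with control are therefore also given without it. *TRPS1* had 1418 and 2323 CPM in the control siRNA libraries and 1149 and 727.5 CPM in the *TRPS1* siRNA libraries, a log2 fold change of -0.97 ± 0.39 (SE, edgeR adjusted p = 0.659), or -1.26 ± 0.30 without control siRNA replicate 1. *CHD4* had 294.7 and 292.2 CPM with control siRNA and 96.2 and 54.2 with *CHD4* siRNA, a log2 fold change of -1.96 ± 0.42 (edgeR adjusted p = 0.784), or -1.91 without control siRNA replicate 1. Both targeted genes were thus lower in both of their own silenced libraries, *TRPS1* with little distance between 1149 and 1418 CPM. All 8 luminal markers listed were over 2 CPM in all 6 libraries. Their summed level was 10760 to 13235 CPM with control siRNA, 5248 to 5268 with *TRPS1* siRNA and 4516 to 6140 with *CHD4* siRNA, a difference carried by the keratin genes *KRT8*, *KRT18* and *KRT19*. Of 8 immune markers, 1 to 3 were over 2 CPM in a library, with a sum of 6.95 to 10.9 CPM with control siRNA, 5.86 to 9.39 with *TRPS1* siRNA and 9.94 to 12.3 with *CHD4* siRNA. *PTPRC*, the pan-leukocyte marker, was at 0 in 5 libraries. Of 8 fibroblast and endothelial markers, *COL1A1* alone passed 2 CPM. In such bulk libraries, fewer cells of a type and less RNA per cell cannot be told apart. The part of these differences in the values below was not tested.

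Sequences upstream of the class I genes are shown because several members hold an element that the choice of genes did not use. The interferon-stimulated response element (ISRE) was searched as GAAA, any 2 bases and GAAA again, on both strands, in the 250 bases before each start site (RefSeq, GRCh38.p14), where 3.02% of 35116 promoters held it. *B2M*, *TAP1* and *TAPBP* each had 2 overlapping matches and *HLA-F* and *TAP2* 1 each, so that 5 of the 8 members with a promoter in the table had a match. No match was found in the windows of *HLA-B*, *HLA-C* and *PSMB9*, which says only that these letters are not there. *HLA-E* had no entry. The last 180 bases before the start site are printed 5′ to 3′ on the strand of the gene, with the matches in capitals.
HLA-B (chr6:31357180-31357359, minus strand): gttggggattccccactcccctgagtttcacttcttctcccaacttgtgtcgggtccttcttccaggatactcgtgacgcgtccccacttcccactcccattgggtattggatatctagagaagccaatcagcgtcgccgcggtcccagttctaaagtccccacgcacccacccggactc
HLA-C (chr6:31272093-31272272, minus strand): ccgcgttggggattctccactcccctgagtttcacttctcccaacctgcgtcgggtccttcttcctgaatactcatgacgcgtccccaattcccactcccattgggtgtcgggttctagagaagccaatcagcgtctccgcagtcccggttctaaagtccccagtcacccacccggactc
HLA-F (chr6:29723254-29723433, plus strand): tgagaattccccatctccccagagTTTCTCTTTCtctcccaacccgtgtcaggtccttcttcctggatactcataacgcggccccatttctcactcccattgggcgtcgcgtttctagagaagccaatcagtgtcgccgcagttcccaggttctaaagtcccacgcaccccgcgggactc
B2M (chr15:44711337-44711516, plus strand): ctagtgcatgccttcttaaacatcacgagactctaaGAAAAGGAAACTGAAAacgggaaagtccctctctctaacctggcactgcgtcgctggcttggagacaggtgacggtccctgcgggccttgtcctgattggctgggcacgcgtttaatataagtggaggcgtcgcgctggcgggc
TAP1 (chr6:32853705-32853884, minus strand): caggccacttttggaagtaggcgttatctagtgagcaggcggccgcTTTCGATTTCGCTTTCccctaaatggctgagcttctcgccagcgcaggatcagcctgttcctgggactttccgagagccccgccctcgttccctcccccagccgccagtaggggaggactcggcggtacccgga
TAP2 (chr6:32838740-32838919, minus strand): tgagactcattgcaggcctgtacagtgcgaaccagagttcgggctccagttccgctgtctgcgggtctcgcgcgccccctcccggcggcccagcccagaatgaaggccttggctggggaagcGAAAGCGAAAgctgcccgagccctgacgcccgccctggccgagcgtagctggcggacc
TAPBP (chr6:33314079-33314258, minus strand): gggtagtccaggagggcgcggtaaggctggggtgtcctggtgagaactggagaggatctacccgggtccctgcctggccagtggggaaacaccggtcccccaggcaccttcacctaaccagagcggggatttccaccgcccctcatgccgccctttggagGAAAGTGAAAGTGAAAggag

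The upstream sequences of *HLA-B* and *HLA-C* were 89% identical over 254 aligned columns, and those of *HLA-B* and *HLA-F* 80.4%, while *HLA-B* and *B2M* shared 49.5%. *TAP1* and *PSMB9* are transcribed away from each other, with start sites 488 bp apart. The heavy chain genes are also close copies of each other in their transcribed parts, and how reads that match several of them were counted is not given in the sources used here, so counts of single heavy chain genes are uncertain.

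All members except *B2M*, which lies on chromosome 15 from 44711517 to 44718145, are in the MHC on chromosome 6, in the 3.59 Mb from the start of *HLA-F* (29723434) to the end of *TAPBP* (33314078). Few genes of this interval were counted. Of its 140 protein-coding genes in RefSeq, 49.3% had a row in either table and 17.1% had over 100 counts in the 6 libraries together, with a median of 0 counts. On the rest of chromosome 6, 59.3% of 909 genes had over 100 counts, with a median of 514, and in the 5 Mb after *TAPBP* 71.2% of 73 genes did, with a median of 1231. *HLA-B* alone held 59.6% of all counts of the interval, a share that also depends on the length of each gene. The plot of counts by distance shows the interval as a gap in which *HLA-B* is the highest point.

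**Figure D1:**
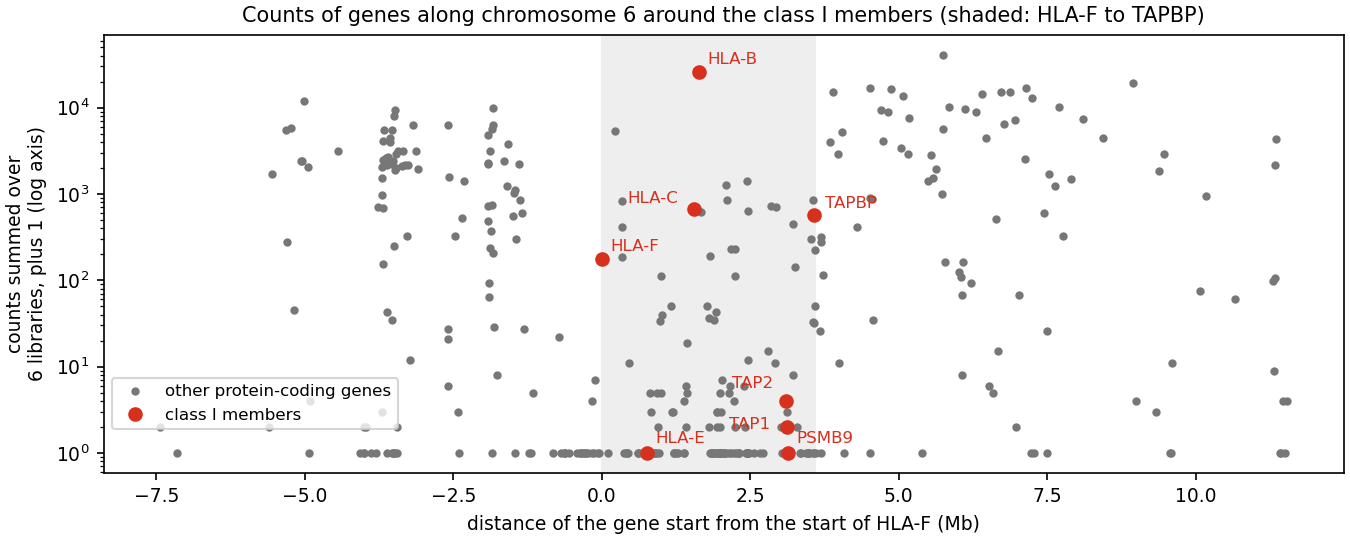
Counts summed over the 6 libraries plus 1 (log axis) for protein-coding genes by the distance of their start from that of HLA-F on chromosome 6 (Mb); the interval from HLA-F to TAPBP is shaded and class I members are red. HLA-B, with 25842 counts, is the highest gene in the shaded interval, where most genes are at 0; HLA-E and PSMB9, which have no row in either table, are drawn at 0.

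Genes of the interval that cells in general use were low as well. These were chosen after their values were seen. *TUBB*, a beta-tubulin gene, had 3 to 33 counts in a library, whereas the alpha-tubulin gene *TUBA1B* outside the interval had 5185 to 59511. *FLOT1* had 0 or 1 count, against 927 to 1860 for its paralog *FLOT2* elsewhere. *CSNK2B*, the regulatory subunit of casein kinase 2, had 1 count in all 6 libraries together, and the ribosomal protein gene *RPS18* had no row, while *RPS19* on another chromosome had 4834 to 9407 counts. *PPP1R11*, a phosphatase inhibitor gene of the interval, had 68 to 233 counts. A value of 0 in this interval is therefore given only as listed at 0, and is not read as absence of the transcript. Whether counts above 0 in it, those of *HLA-B*, *HLA-C*, *HLA-F* and *TAPBP* included, fall short of the transcript level was not tested. Their ratios to *B2M*, which lies outside the interval, carry the same limit.

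The transporter and immunoproteasome members were at or near 0 in every library. *TAP1* (chromosome 6, 32845209 to 32853704) had 0 and 1 count with control siRNA and was listed at 0 in the other 4 libraries. *TAP2* (32821831 to 32838739) had 1 and 2 counts with *TRPS1* siRNA and is listed only in that table. *HLA-E* and *PSMB9* had no row in either table, and a table lists only genes with at least 1 count in it. *PSMB8*, the immunoproteasome gene next to *TAP1*, had 2 counts in *TRPS1* siRNA replicate 1 and was at 0 elsewhere. With so few counts, no difference between groups could be detected for these genes, and no fold change is given.

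*HLA-B* (chromosome 6, 31353875 to 31357179, minus strand) had 8270 and 2761 counts in control siRNA replicates 1 and 2, 2046 and 4755 in those of *TRPS1* siRNA, and 3240 and 4770 in those of *CHD4* siRNA. Normalized, these were 594.5 and 213.2 CPM, 193.4 and 314.6 CPM, and 303.8 and 381.6 CPM. The highest value was that of control siRNA replicate 1 and the next to lowest that of control siRNA replicate 2, so the control libraries enclosed all but 1 of the silenced ones. *HLA-C* (31268749 to 31272092, minus strand) had the same order of control libraries at a lower count, with 233 and 65 counts (16.8 and 5.02 CPM) with control siRNA, 45 and 139 (4.25 and 9.20 CPM) with *TRPS1* siRNA and 74 and 117 (6.94 and 9.36 CPM) with *CHD4* siRNA. *HLA-F* (29723434 to 29738532, plus strand) had 60 and 26 counts with control siRNA (4.31 and 2.01 CPM), 19 and 29 (1.80 and 1.92 CPM) with *TRPS1* siRNA, and 12 and 30 (1.13 and 2.40 CPM) with *CHD4* siRNA. For all 3 heavy chain genes control siRNA replicate 1 was the highest library.

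*B2M*, the light chain of every class I molecule, ran the other way. It had 242 and 930 counts (17.4 and 71.8 CPM) with control siRNA, 781 and 1798 (73.8 and 119.0 CPM) with *TRPS1* siRNA, and 732 and 1339 (68.6 and 107.1 CPM) with *CHD4* siRNA. Control siRNA replicate 1 was the lowest library, while control siRNA replicate 2 lay between both replicates 1 of the silenced groups. *TAPBP* (33299694 to 33314078, minus strand) had 136 and 115 counts (9.78 and 8.88 CPM) with control siRNA, 50 and 83 (4.73 and 5.49 CPM) with *TRPS1* siRNA, and 121 and 72 (11.3 and 5.76 CPM) with *CHD4* siRNA. Its control libraries were close to each other, and both *TRPS1* siRNA libraries were below them.

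**Figure D2:**
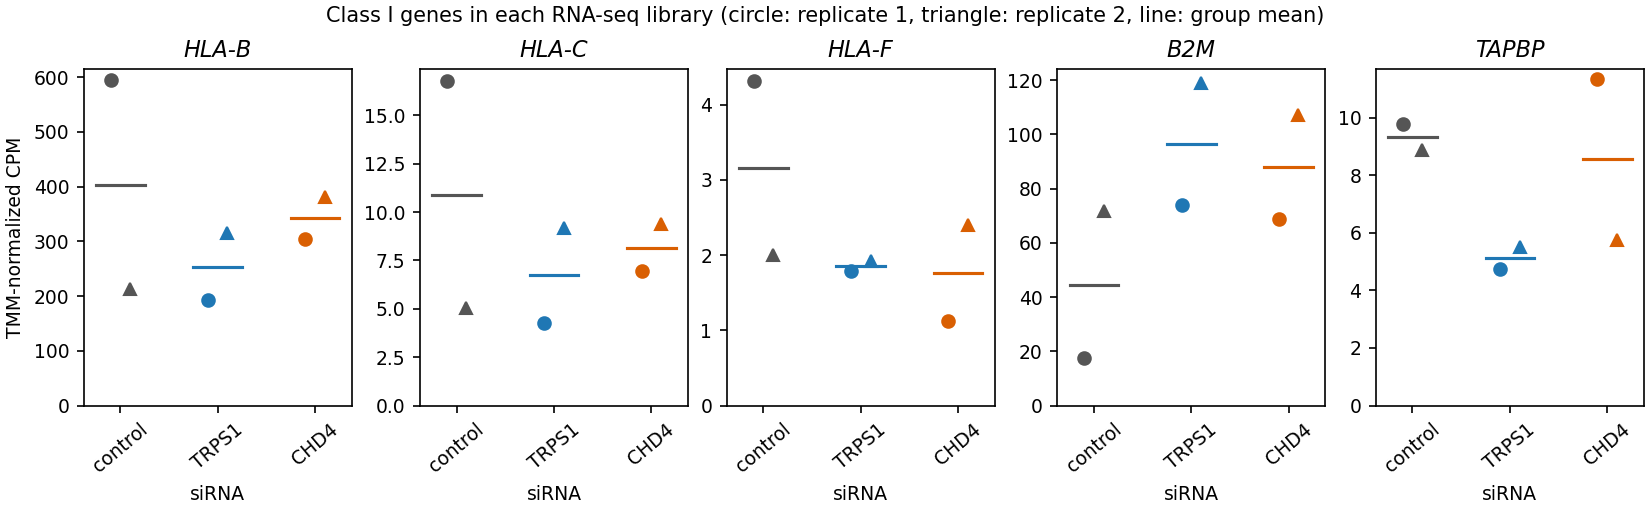
TMM-normalized CPM of the 5 members with at least 12 counts in every library, for control, TRPS1 and CHD4 siRNA (circles replicate 1, triangles replicate 2, lines group means, n = 2). The control circle is the highest point for HLA-B, HLA-C and HLA-F and the lowest for B2M (17.4 CPM).

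Ratios of counts within a library do not depend on its depth, and they set control siRNA replicate 1 apart. The ratio of *HLA-B* to *B2M* counts was 34.2 in that library and 2.97 in control siRNA replicate 2. In the *TRPS1* siRNA libraries it was 2.62 and 2.64, and in the *CHD4* siRNA libraries 4.43 and 3.56. Control siRNA replicate 2 thus lay between the 2 silenced groups, which did not overlap. Between these groups 46.7% of all single genes tested did not overlap, and *HLA-B* and *B2M* taken singly did. The share for ratios of 2 genes was not computed, so this is not read as a difference between the knockdowns. The ratio of *HLA-C* to *B2M* was 0.963 in control siRNA replicate 1 and 0.0576 to 0.101 in the other 5 libraries, and that of *TAPBP* to *B2M* 0.562 against 0.0462 to 0.165. The ratio of *HLA-B* to *HLA-C* was 35.5 in control siRNA replicate 1, inside the range of 34.2 to 45.5 of the other libraries. *HLA-B*, *HLA-C* and *TAPBP* were thus each highest relative to *B2M* in that library, while *HLA-B* and *HLA-C* kept their proportion to each other. The ratios to *B2M* share its low value there (17.4 CPM) and are not separate observations. *TAPBP* itself had 9.78 CPM in that library and 11.3 CPM in *CHD4* siRNA replicate 1.

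**Figure D3:**
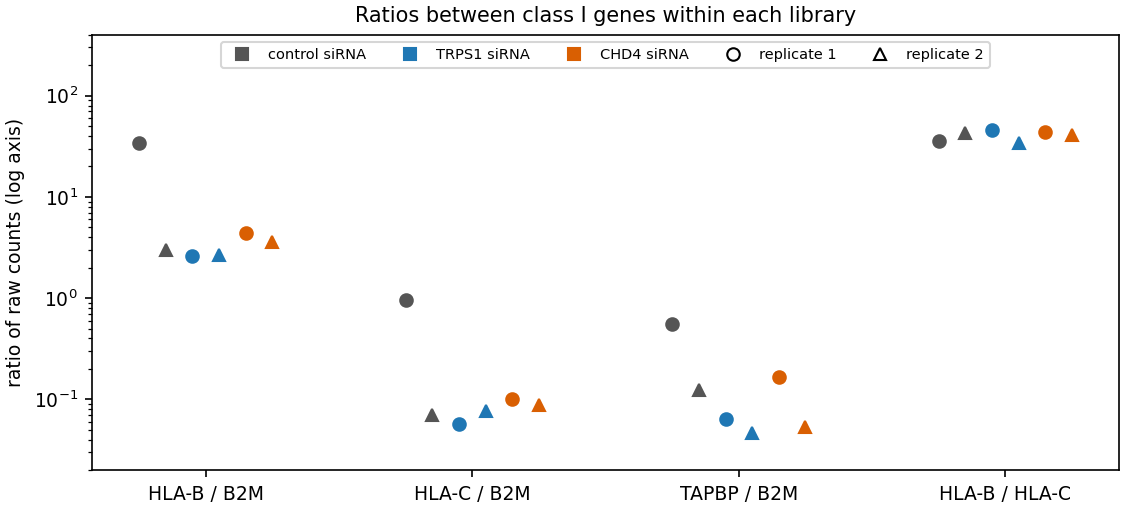
Ratios of raw counts between class I genes within each of the 6 libraries (log axis, colors for siRNA, circles replicate 1, triangles replicate 2). Control siRNA replicate 1 lies above the other 5 libraries in every ratio except HLA-B to HLA-C, where all libraries lie between 34.2 and 45.5.

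Upon silencing *TRPS1*, no member passed a threshold. Of the 9 members, 4 passed the filter (at least 2 of 4 libraries above 2 CPM by library size alone, without the TMM factors of the CPM given above), and *HLA-F* missed it. None reached an edgeR adjusted p under 0.05, as did none of the 12921 genes tested (0% called, with the lowest adjusted p at 0.659), and none had a fold change over 2 with an unadjusted p under 0.05, which 5.87% of genes had, 2.7% higher and 3.17% lower. At an unadjusted p under 0.05 there were 902 genes (6.98%), none of them a member, and other tests called 34 genes (likelihood ratio test) and 37 (DESeq2) at an adjusted p under 0.05. The log2 fold change was -0.67 ± 0.55 (SE) for *HLA-B* (edgeR adjusted p = 0.715), -0.70 ± 0.72 for *HLA-C* (0.763), 1.14 ± 0.66 for *B2M* (0.667) and -0.86 ± 0.48 for *TAPBP* (0.664). *B2M* was higher in both silenced libraries than in both controls and *TAPBP* lower, while *HLA-B* and *HLA-C* overlapped. Groups that did not overlap were seen for 44% of all genes tested, 21.5% higher and 22.5% lower, so 2 of 4 is near the background.

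The directions of *HLA-B* and *HLA-C* depended on 1 control library. Without control siRNA replicate 1, the log2 fold change upon silencing *TRPS1* was 0.29 ± 0.29 for *HLA-B*, 0.48 ± 0.50 for *HLA-C* and 0.47 ± 0.28 for *B2M*. Without control siRNA replicate 2 instead, it was -1.25 ± 0.28 for *HLA-B* (edgeR adjusted p = 0.00704), -1.32 ± 0.42 for *HLA-C* (0.0310) and 2.45 ± 0.32 for *B2M* (0.000929). That fit has a single control library, assumed to vary like the silenced group, and called 6166 genes. *TAPBP* kept its direction and size in both, at -0.75 ± 0.36 and -0.95 ± 0.35, with edgeR adjusted p values of 0.261 and 0.0528.

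Upon silencing *CHD4*, 5 members could be tested and none passed a threshold. An adjusted p under 0.05 was reached by none of 12918 genes (0% called, edgeR), a fold change over 2 with an unadjusted p under 0.05 by 5.45% (2.6% higher and 2.85% lower), and an unadjusted p under 0.05 by 769 genes (5.95%), none of them a member. The likelihood ratio test called 58 genes at an adjusted p under 0.05 and DESeq2 50. The log2 fold change was -0.24 ± 0.52 (SE) for *HLA-B* (edgeR adjusted p = 0.920), -0.42 ± 0.67 for *HLA-C* (0.886), -0.83 ± 0.80 for *HLA-F* (0.826), 1.01 ± 0.64 for *B2M* (0.798) and -0.12 ± 0.55 for *TAPBP* (0.966). All 5 members overlapped between the groups, while 39.5% of all genes tested did not (18.8% higher and 20.7% lower). Both comparisons use the same control libraries, so that their values are not independent.

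Without control siRNA replicate 1, the log2 fold change upon silencing *CHD4* was 0.73 ± 0.28 for *HLA-B* (edgeR adjusted p = 0.296), 0.75 ± 0.43 for *HLA-C*, -0.12 ± 0.64 for *HLA-F*, 0.34 ± 0.32 for *B2M* and -0.01 ± 0.48 for *TAPBP*. *HLA-B* and *HLA-C* again changed sign. Without control siRNA replicate 2, which again left a single control library, *B2M* was at 2.32 ± 0.38 and *HLA-C* at -1.05 ± 0.37.

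**Figure D4:**
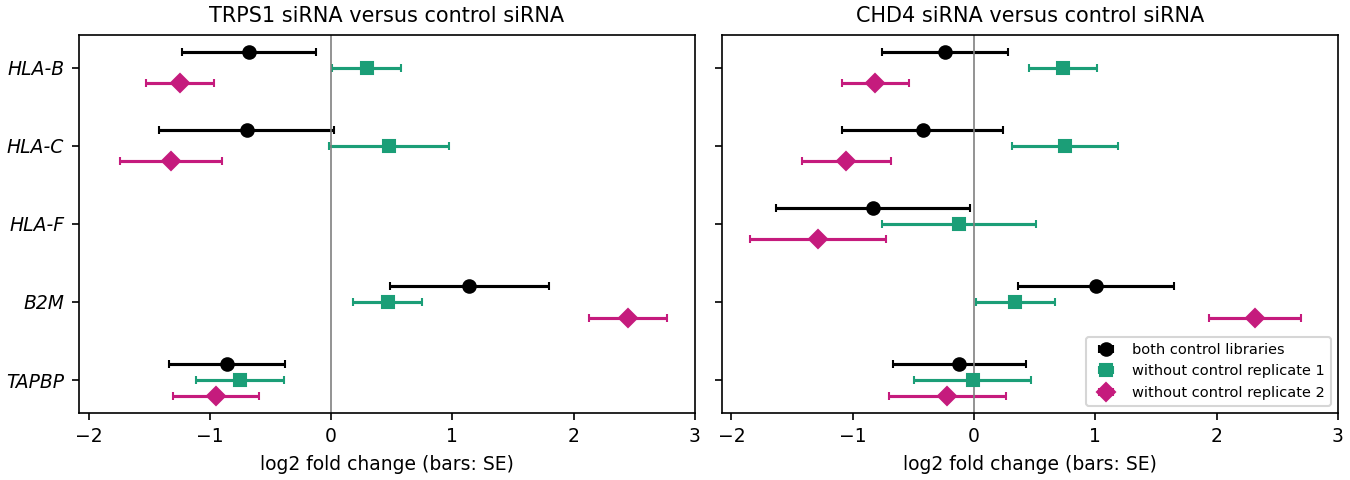
Log2 fold changes with SE of the tested members in both comparisons with control siRNA, with both control libraries (circles), without control siRNA replicate 1 (squares) and without control siRNA replicate 2 (diamonds). HLA-B and HLA-C lie on opposite sides of 0 depending on the control library left out, and TAPBP upon silencing TRPS1 lies between -0.95 and -0.75 in all 3.

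A direct comparison of the knockdowns left the control libraries out. Of 13143 genes, 0 (0%) had an edgeR adjusted p under 0.05, 2023 (15.4%) an unadjusted p under 0.05, and 3.67% a fold change over 2 with it (2.12% higher and 1.56% lower), and no member was among either. The likelihood ratio test called 570 genes at an adjusted p under 0.05 and DESeq2 456. *TAPBP* was 0.74 ± 0.39 (log2, SE) higher with *CHD4* siRNA (edgeR adjusted p = 0.433) and was the only tested member whose groups did not overlap, as 46.7% of all genes did not (23.1% higher and 23.7% lower). Without *CHD4* siRNA replicate 2 its difference was 1.15, past the threshold of fold and unadjusted p, and without *CHD4* siRNA replicate 1 it was 0.17, so that this difference turned on the pair of *CHD4* siRNA libraries at 11.3 and 5.76 CPM. *HLA-B* differed by 0.43 ± 0.26 (0.489), *HLA-C* by 0.27 ± 0.41 (0.818) and *B2M* by -0.13 ± 0.30 (0.881). Deviations of equally numbered libraries of the knockdowns from their group means correlated at 0.629 across genes. This fit takes no account of that, and a fit with a replicate block, in which *HLA-B* differed in its call, is given below.

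The 2 libraries of each knockdown were then compared with each other. In *TRPS1* siRNA replicate 2, all 5 members with a mean of at least 2 CPM were higher than in replicate 1, by a median of 1.61-fold, and in *CHD4* siRNA replicate 2, 4 of 5 were, by a median of 1.34-fold. *HLA-B* was 1.63-fold and 1.26-fold higher, *B2M* 1.61-fold and 1.56-fold. *TAPBP* in the *CHD4* siRNA libraries was the exception. Over 12828 genes the share higher in replicate 2 was 52.5% with *TRPS1* siRNA and 48.5% with *CHD4* siRNA.

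Interferon-stimulated genes outside antigen presentation differed in the same 2 pairs, and by more. All 12 of those with a mean of at least 2 CPM were higher in replicate 2 of both silenced groups, by a median of 7.26-fold with *TRPS1* siRNA and 9.13-fold with *CHD4* siRNA, against a median of 0.819-fold between the control libraries, where 5 of 12 were higher. *ISG15*, a ubiquitin-like modifier, had 54.2 and 39.8 CPM with control siRNA, 5.29 and 80.1 with *TRPS1* siRNA and 6.10 and 81.9 with *CHD4* siRNA. For this gene the control libraries lay between the replicates of both silenced groups. The part of this split in the replicate differences of the members was not tested.

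**Figure D5:**
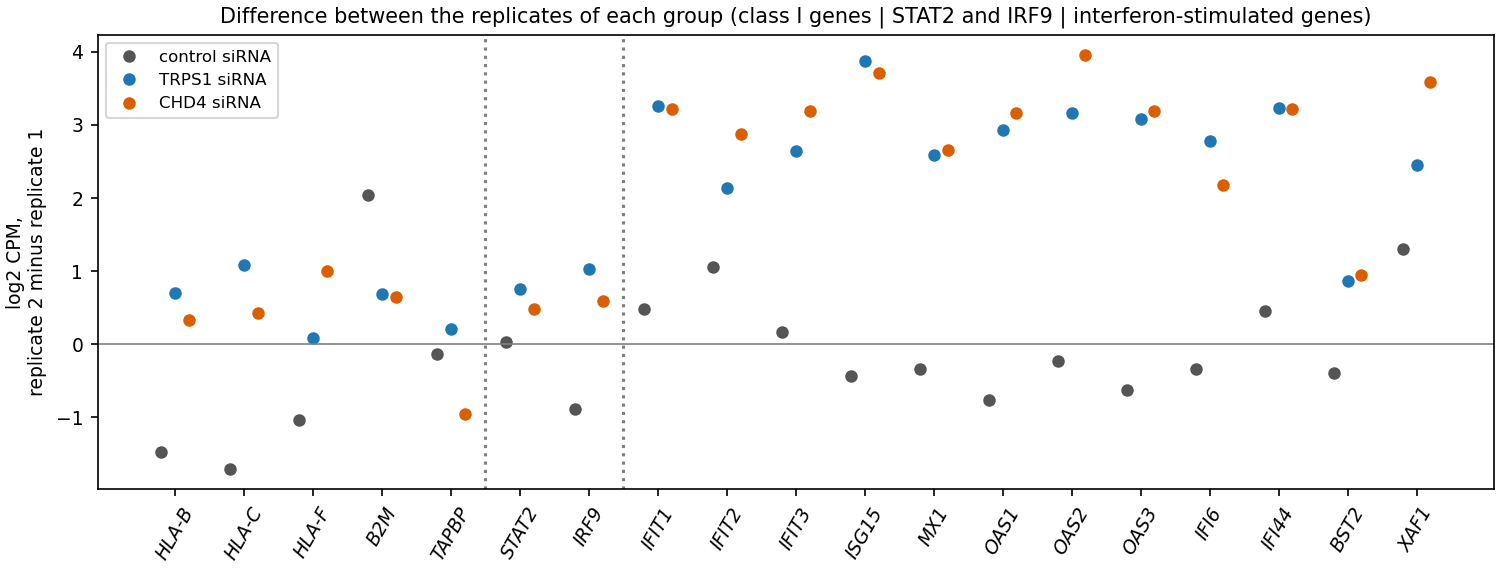
Log2 difference in CPM between replicate 2 and replicate 1 of each group for the 5 members with a mean of at least 2 CPM, STAT2 and IRF9, and 12 interferon-stimulated genes. The interferon-stimulated genes lie between 0.87 and 3.95 in both silenced groups, and 4 of the 5 members lie above 0 in both, TAPBP being the exception; between the control libraries B2M is at 2.04 and HLA-C at -1.71.

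In the other genes of the pathway, taken from lists of its steps, few passed a threshold and none reached an adjusted p under 0.05 by edgeR. Of the 6 other class I and class I-like heavy chain genes, 4 were tested in each comparison and none passed either threshold. Their median log2 fold change was 0.18 upon silencing *TRPS1* and 0.19 upon silencing *CHD4*. *MICA*, a stress ligand of natural killer cells, was lowest upon silencing *TRPS1*, at 6.52 and 7.08 CPM against 6.04 and 11.04, and *HFE*, a regulator of iron uptake, upon silencing *CHD4*, at 29.4 and 36.9 CPM against 33.9 and 31.0.

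The 7 tested genes of peptide generation outside the members had negative log2 fold changes in both comparisons, with a median of -0.56 upon silencing *TRPS1* and -0.46 upon silencing *CHD4*, beside -0.02 over all genes tested in each. The groups did not overlap for 6 and 5 of them, all lower, beside 44% (22.5% lower) and 39.5% (20.7% lower) of all genes tested. Both counts use the same control libraries and are not independent. *PSME3*, a proteasome activator subunit, passed the threshold of fold and unadjusted p upon silencing *TRPS1*, as 3.17% of genes did in this direction. It had 404.0 and 281.1 CPM with control siRNA, 167.8 and 168.8 with *TRPS1* siRNA and 177.7 and 205.9 with *CHD4* siRNA, log2 fold changes of -1.02 ± 0.35 (edgeR adjusted p = 0.659) and -0.83 ± 0.38 (0.792). These were -0.70 and -0.50 without control siRNA replicate 1, the higher of the control libraries, and the threshold was no longer passed. *PSMB10*, an immunoproteasome subunit outside the MHC, had 5.25 and 2.78 CPM with control siRNA, 3.50 and 3.57 with *TRPS1* siRNA and 0.844 and 2.72 with *CHD4* siRNA. The constitutive subunit gene *PSMB6* had 44.6 and 33.7 CPM with control siRNA and 23.8 and 42.6 with *CHD4* siRNA, where its groups overlapped.

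Of the genes of peptide trimming and loading, 7 were tested upon silencing *TRPS1* and 6 upon silencing *CHD4*, with a median log2 fold change of 0.37 and 0.41. *HSPA5*, the BiP chaperone of the endoplasmic reticulum, had 836.9 and 760.7 CPM with control siRNA, 1623 and 1362 with *TRPS1* siRNA and 1947 and 1332 with *CHD4* siRNA. It passed the threshold of fold and unadjusted p upon silencing *CHD4* (1.04 ± 0.36, edgeR adjusted p = 0.792), as 2.6% of genes did in this direction, and stood at 0.91 ± 0.31 (0.659) upon silencing *TRPS1*. Both were past it without control siRNA replicate 1, at 1.16 ± 0.39 and 1.02 ± 0.27, while without *CHD4* siRNA replicate 1 the former was at 0.75. *ERAP2*, a peptide-trimming aminopeptidase, had 0.359 CPM in control siRNA replicate 1 and 3.38 to 5.92 CPM in the other libraries. *CALR*, the chaperone calreticulin, had 2031 and 1017 CPM with control siRNA and 1280 and 1362 with *TRPS1* siRNA.

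Of 18 regulators of class I genes, 17 were tested in each comparison and none passed the threshold of fold and unadjusted p. Their median log2 fold change was -0.15 upon silencing *TRPS1* and -0.08 upon silencing *CHD4*. *NLRC5* had 19.6 and 8.88 CPM with control siRNA, 18.1 and 20.2 with *TRPS1* siRNA and 24.0 and 24.9 with *CHD4* siRNA. *RELA*, an NF-kappaB subunit, had 186.3 CPM in control siRNA replicate 1 and 56.6 to 64.9 CPM in the other 5 libraries, so its fold changes rested on 1 library. The only regulator with an unadjusted p under 0.05 in either comparison with control was *JAK1*, a kinase of interferon receptors, chosen after its values were seen. It had 269.7 and 335.0 CPM with control siRNA, 156.7 and 191.6 with *TRPS1* siRNA and 161.4 and 161.5 with *CHD4* siRNA, log2 fold changes of -0.78 ± 0.32 (edgeR adjusted p = 0.659) and -0.89 ± 0.35 (0.792). The latter was -1.004 ± 0.23 without control siRNA replicate 1, past the threshold of fold and unadjusted p.

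Among 10 genes of MHC class II, which presents peptides from outside the cell, 5 were tested upon silencing *TRPS1* and 2 of them passed the threshold of fold and unadjusted p, both higher, where 2.7% of genes did. *HLA-DRA*, *HLA-DPA1* and *HLA-DPB1* had no row in either table. They and *HLA-DRB1* lie in the interval from *HLA-F* to *TAPBP*, where few genes were counted. *HLA-DRB1*, a class II beta chain gene, had 71 and 77 counts (5.10 and 5.95 CPM) with control siRNA, 152 and 228 (14.4 and 15.1 CPM) with *TRPS1* siRNA and 99 and 99 (9.28 and 7.92 CPM) with *CHD4* siRNA. Its log2 fold change was 1.43 ± 0.43 (edgeR adjusted p = 0.659) upon silencing *TRPS1* and 1.35 ± 0.33 without control siRNA replicate 1, but with either *TRPS1* siRNA library left out its unadjusted p in edgeR was 0.162 and 0.183, at 1.44 and 1.40. In the direct comparison of *CHD4* siRNA with *TRPS1* siRNA it was -0.78 ± 0.22 (edgeR adjusted p = 0.202). *CIITA*, the class II transactivator, had 0 and 6 counts with control siRNA, 32 and 36 with *TRPS1* siRNA and 12 and 28 with *CHD4* siRNA. The control counts are too few for a stable fold: its log2 fold change upon silencing *TRPS1* was 3.54 ± 1.21 with both control libraries and 2.55 ± 0.62 without replicate 1, and its unadjusted p in edgeR was 0.0627 without *TRPS1* siRNA replicate 1. *HLA-DMA*, a peptide exchange chaperone of class II, had 139 and 68 counts with control siRNA, 65 and 88 with *TRPS1* siRNA and 40 and 50 with *CHD4* siRNA.

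Interferon-stimulated genes outside antigen presentation showed no call in either comparison with control, with 12 tested in each and median log2 fold changes of 0.17 and -0.16. *OAS2*, which makes the 2-5A signal against viral RNA, had 244.9 and 207.7 CPM with control siRNA, 20.3 and 182.7 with *TRPS1* siRNA and 22.98 and 358.0 with *CHD4* siRNA. *IFI44* had 5.68 and 7.80 CPM, 2.55 and 25.3 CPM, and 2.44 and 23.9 CPM, *XAF1* 1.22 and 3.24 CPM, 1.23 and 7.41 CPM, and 0.656 and 9.68 CPM, and *BST2*, which tethers budding virus, 417.5 and 316.6 CPM, 307.3 and 561.0 CPM, and 154.4 and 297.7 CPM, in the same order.

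The profile of *B2M* over the 6 libraries was compared with those of 9960 genes with a mean of at least 10 CPM, by the root mean square difference of log2 CPM after centring each gene on its mean. The nearest genes were *ZNF267* (0.157), *ANKRD36C* (0.157), *GXYLT1* (0.160), *ZNF701* (0.184) and *ZNF260* (0.185). Like *B2M*, all 5 were lowest in control siRNA replicate 1, which follows from picking them by the *B2M* profile. *ZNF267* for example had 4.74 CPM there and 15.9 to 32.7 CPM in the other libraries. *HLA-B* ranked 8608 in this order, and the other members had a mean below 10 CPM.

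TRPS1 binding was then compared with the position of the members. The deposited list holds 1844 peaks for 2 ChIP and 2 input libraries, on hg38, of which 97 lie on chromosome 6 and 0 in the interval from *HLA-F* to *TAPBP*. The rest of chromosome 6, up to its last gene, had 0.581 peaks per Mb. No member had a peak centre within 5 kb of its start site (0 of 8 with a start site in the table), nor within 50 or 100 kb. The nearest lay 489.1 kb from *B2M*, and the distances of the MHC members ranged from 1079 kb for *TAPBP* to 2974 kb for *HLA-B*. Since 1 list stands for both ChIP libraries, these positions have no replicate error. The share of all genes with a peak at these distances was not computed, so 0 of 8 is not read as particular to the members. Whether ChIP reads could be placed in the interval was not tested, so 0 peaks there are not read as absence of binding.

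Of the regulators, *IRF9* and *STAT2*, which encode parts of the factor that binds the ISRE, each had a TRPS1 peak at its start site. The share of all genes with a peak this near was not computed, so these peaks are not read as particular to the regulators. The luminal marker genes *ESR1* and *FOXA1* also had a peak centre near a start site, at 1.6 and 1.0 kb. The *IRF9* peak (225 bp) ended 20 bp before the start site, at chromosome 14, 24161265, and its centre was 132 bp from it. The *STAT2* peak, on chromosome 12 from 56359857 to 56360082, had its centre 137.5 bp from the start site and lay inside the gene. For *IRF2*, also among the regulators, no start site was available. Its nearest peak lay 3404 bp outside the gene body, and the distance of that peak to the start site is not known here. The sequence of the *IRF9* peak is shown because its centre is the nearest to a start site among the regulators with a start site. The sequence of the *STAT2* peak was not available here. GATA elements (GATA with A or T before it and A or G after it, on both strands) are in capitals. The *IRF9* peak holds 2, and 22.3% of all promoter windows of 250 bases hold at least 1. A match is a description and not a mapped site.
IRF9 (chr14:24161021-24161245, plus strand): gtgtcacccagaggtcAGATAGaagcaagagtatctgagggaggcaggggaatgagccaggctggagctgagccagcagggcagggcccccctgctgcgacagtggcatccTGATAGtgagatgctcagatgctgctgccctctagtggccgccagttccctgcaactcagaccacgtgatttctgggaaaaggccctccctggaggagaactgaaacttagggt

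*IRF9* and *STAT2* were both higher in replicate 2 than in replicate 1 of both silenced groups. This was not particular to them: of 17 regulators with a mean of at least 2 CPM, 15 were higher in replicate 2 with *TRPS1* siRNA and 14 with *CHD4* siRNA. *IRF9* had 102.2 and 55.0 CPM with control siRNA, 32.3 and 65.9 with *TRPS1* siRNA and 39.9 and 60.5 with *CHD4* siRNA. *STAT2* had 174.5 and 177.5 CPM, 120.1 and 202.5 CPM, and 137.9 and 192.5 CPM in the same order. The silenced groups overlapped the control group for both genes, and neither passed a threshold in any comparison.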

How the data were processed

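RNA-seq (rRNA-depleted, 6 libraries) and TRPS1 ChIP-seq (1 peak list) of T47D cells were grouped by the labels. Per the study's methods, the authors used STAR for alignment and HTSeq (0.9.0) for the read counts of each gene, deposited without normalization. The annotation, strand setting and treatment of multiply mapped reads are not given in the sources used here. Per the labels, the build is hg38 and peaks came from BWA (0.7.12-r1039) and MACS2 (2.1.1), and the deposited list gives start and end positions.

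Each pair of groups was fitted in edgeR (4.0.16, R 4.3.3) with genes over 2 CPM in at least 2 libraries, TMM factors, a prior count of 0.125, the quasi-likelihood F-test and Benjamini-Hochberg adjustment over all genes tested. Each standard error (SE) is the absolute log2 fold change over the root of the F statistic. The study's threshold is a fold change over 2 with an unadjusted p under 0.05. An exact permutation test of 2 libraries against 2 cannot go below a two-sided p of 0.333 and was not run. The fit was tested on simulated data. Genes were placed by symbol with RefSeq (GRCh38.p14, the same build). Alternatives were the likelihood ratio test, DESeq2 (1.42.0), other scalings and filters, all 6 libraries in one fit, a replicate block and leaving out each library. Giving each comparison without control siRNA replicate 1 beside the main value was decided after the data were seen.

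The members, lists and tests were chosen with earlier results of these data known. Genes named are the members, both targeted genes, list genes past the study's threshold or else the highest and lowest of each list, those with a peak within 5 kb, and the 5 genes most like *B2M*; some genes of these lists are not reported here. For any other gene the text says that it was picked with its values known.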

Additional observations from a re-analysis of the deposited data

Results flagged for a closer look

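*CANX*, the chaperone calnexin that binds newly made class I heavy chains, lay on opposite sides of the controls in the 2 knockdowns. It had 824.4 and 960.5 CPM with control siRNA, 1123 and 1159 with *TRPS1* siRNA and 703.0 and 514.3 with *CHD4* siRNA, so that both *TRPS1* siRNA libraries lay above and both *CHD4* siRNA libraries below the controls. The gene was picked from the lists by this pattern, which is therefore no support. Of all genes tested, 21.5% lay above the controls without overlap with *TRPS1* siRNA and 20.7% below them with *CHD4* siRNA. The share with both was not computed and cannot be read from these, since both comparisons use the same control libraries. Neither comparison with control passed a threshold, with log2 fold changes of 0.37 ± 0.30 (SE, edgeR adjusted p = 0.710) and -0.54 ± 0.35 (0.798), or 0.29 and -0.61 without control siRNA replicate 1. The direct difference of *CHD4* siRNA minus *TRPS1* siRNA was -0.91 ± 0.21 (edgeR adjusted p = 0.148), between -1.15 and -0.69 when 1 library was left out. The likelihood ratio test (adjusted p = 0.0151), DESeq2 (0.00581) and the fit without a filter (0.0244) called it. The numbers of all genes that these settings called are given below.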

How the results depend on the processing

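The fits with 2 libraries a group set the limit here, beside the low counts of the MHC interval. Of the fold changes given, 220 of 238 under settings other than leaving out a library, and 98 of 120 when leaving out a library, kept their direction and their side of an adjusted p of 0.05. The other 18, of *CHD4*, *TRPS1*, *CANX*, *HLA-B* and *HLA-DRB1*, gained that call, as did 14 when leaving out a library, where 8 reversed. Upon silencing *TRPS1*, genes at an adjusted p under 0.05 numbered 34 (likelihood ratio test), 37 (DESeq2) and 32 (replicate block) instead of 0, and genes past the study's threshold 1359 (no filter) and 1221 (replicate block) instead of 759, with 1 member, *B2M*, past it in each of the latter 2 settings. Upon silencing *CHD4*, the first count was 58, 50, 111 (no filter) and 44 (replicate block) instead of 0 and the second 1403 without a filter instead of 704, and 1 member, *B2M*, passed under the replicate block at a log2 fold change of 1.28. For *CHD4* siRNA against *TRPS1* siRNA the first count was 570, 456, 424 (no filter) and 3372 (replicate block) instead of 0, and the second 751 (no filter) and 313 (over 2 CPM in every library) instead of 483. The cause of these shifts was not tested. With library sizes alone the median log2 fold change of all genes was 0.10 upon silencing *TRPS1* and 0.11 upon silencing *CHD4*, against -0.02 in each, and without a filter 0.13 in each. The replicate block was run because the labels number the replicates alike. Deviations of equally numbered libraries correlated at 0.065 (control and *TRPS1* siRNA), 0.0087 (control and *CHD4* siRNA) and 0.629 (*TRPS1* and *CHD4* siRNA) across 12828 genes. The labels name no shared batch, and the number was not taken as a pairing in the main fits. Equally numbered libraries of the knockdowns did go together, and their main comparison takes no account of this. Under the block, 1 member, *HLA-B*, reached an adjusted p under 0.05 between the knockdowns (0.46, edgeR adjusted p = 0.0012).

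Leaving out 1 library, genes at an adjusted p under 0.05 ranged from 0 to 6166 (*TRPS1* against control siRNA), 0 to 3969 (*CHD4* against control siRNA) and 0 to 57 (direct), and genes past the study's threshold from 97 to 4365, 120 to 3995 and 502 to 796. The highest counts against control came without control siRNA replicate 2, and the highest direct count without *CHD4* siRNA replicate 2. Members past the study's threshold ranged from 0 to 3, 0 to 2 and 0 to 1, and members at an adjusted p under 0.05 from 0 to 3, 0 to 1 and 0 to 0. The log2 fold change upon silencing *TRPS1* ranged from -1.25 to 0.29 for *HLA-B* and -1.35 to 0.48 for *HLA-C*, and upon silencing *CHD4* from -0.81 to 0.73, -1.05 to 0.75 and, for *TAPBP*, -0.68 to 0.30 (without *CHD4* siRNA replicate 2). The direct difference ranged from -0.16 (without *TRPS1* siRNA replicate 1) to 0.95 for *HLA-C* and from -0.48 to 0.26 (without *TRPS1* siRNA replicate 2) for *B2M*, which was at 0.15 without *CHD4* siRNA replicate 1. No member had a TRPS1 peak within 5 kb by peak centre, peak edge or gene body.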

Other observations

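Low counts of widely used genes were also seen in 2 other regions, picked after their values were seen. *RPS9*, a ribosomal protein gene of the leukocyte receptor complex on chromosome 19, had 1 to 10 counts in a library, and *KANSL1*, a chromatin regulator gene on chromosome 17, had 12 to 31.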
